A study of Mus musculus with 9 samples.

Results

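The genes described here are 10 genes of the hypoxia response and of glycolysis, listed by symbol: Hif1a, Egln3, Aldoa, Pgk1, Eno1, Pkm, Ldha, Slc16a3, Bnip3 and Adm. Each was taken as the transcript cluster that carries its symbol in the platform annotation, and 9 of the 10 were found, each with 1 cluster, among 19572 annotated clusters. Eno1 had no cluster under that symbol. The samples were white fat from male mice, each hybridized to its own Clariom S array (Mouse), 9 in all and 3 per group. The wild type group was strain C57BL/6JHamSlc-+ /+ given vehicle, the ob/ob vehicle group was strain C57BL/6JHamSlc-ob/ob given vehicle, and the VE group was C57BL/6JHamSlc-ob/ob gavaged with 100 mg/kg of VE, a Vigna umbellata (rice bean) extract. All mice were 6 weeks old when obtained, ate standard chow, and were followed for 42 days, with VE or vehicle given over 6 weeks. Mice of the ob/ob strain lack functional leptin in every cell of the body, so both ob/ob groups share obesity and leptin deficiency, and the extract was given only on that background. The fat depot was not stated.

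Hypoxia-inducible factor is a pair of proteins, an oxygen-regulated alpha subunit such as that encoded by Hif1a and a stable partner. With enough oxygen, prolyl hydroxylases such as the product of Egln3 mark the alpha subunit, the VHL ubiquitin ligase binds it, and it is degraded. When oxygen falls the factor builds up, mostly without a change in its transcript, and binds promoters and enhancers at a short core motif to raise genes of glycolysis, lactate export, blood vessel tone and mitochondrial clearance. In obesity, expanding white fat is one of the tissues in which low oxygen and this factor have been studied most.

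The promoters of the 4 genes that differed between ob/ob vehicle and wild type are shown because the factor's core motif lies in each of them, although the genes did not move the same way. The sequences are the 250 bases before a RefSeq transcription start, from the RefSeq table of build GRCm38.p6, in the direction of the gene. Capitals mark every match to ACGTG or GCGTG, the core motif in both of its common forms, searched on both strands. A match on the opposite strand reads CACGT or CACGC, and CACGTG holds 2 overlapping matches, 1 per strand.
Ldha, chr7:46845554-46845803, plus strand: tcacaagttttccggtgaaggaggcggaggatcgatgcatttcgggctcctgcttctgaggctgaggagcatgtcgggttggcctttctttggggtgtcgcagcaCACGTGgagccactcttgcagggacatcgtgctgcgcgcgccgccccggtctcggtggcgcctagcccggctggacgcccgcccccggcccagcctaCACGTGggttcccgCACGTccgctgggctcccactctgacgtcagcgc
Aldoa, chr7:126799255-126799504, minus strand: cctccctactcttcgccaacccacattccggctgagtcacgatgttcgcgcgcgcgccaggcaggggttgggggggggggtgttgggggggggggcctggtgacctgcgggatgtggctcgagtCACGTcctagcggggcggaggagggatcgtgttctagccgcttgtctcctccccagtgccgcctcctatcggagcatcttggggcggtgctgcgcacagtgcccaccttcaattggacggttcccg
Adm, chr7:110627407-110627656, plus strand: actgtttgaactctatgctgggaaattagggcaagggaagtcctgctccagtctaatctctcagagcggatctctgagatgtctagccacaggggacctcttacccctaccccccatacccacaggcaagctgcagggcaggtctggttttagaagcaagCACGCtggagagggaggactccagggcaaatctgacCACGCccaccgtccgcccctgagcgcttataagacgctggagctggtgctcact
Egln3, chr12:54203875-54204124, minus strand: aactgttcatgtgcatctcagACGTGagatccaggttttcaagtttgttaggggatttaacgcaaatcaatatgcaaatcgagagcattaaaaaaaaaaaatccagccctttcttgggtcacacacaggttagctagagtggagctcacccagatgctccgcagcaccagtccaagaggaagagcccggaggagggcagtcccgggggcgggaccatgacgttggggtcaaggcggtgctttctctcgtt
The Ldha window held 5 matches, all ACGTG, and the matches nearest the start began 34, 47 and 48 bases before it. The Aldoa window held 1, the Adm window held 2 of the GCGTG form, beginning 90 and 54 bases before the start, and the Egln3 window held 1 at 229 bases before the start. Ldha and Aldoa have further annotated starts, 2 and 3 in all, and the window shown is the one with more matches, or the first of those with the same number. At least 1 window of each of the 10 listed genes held a match, and 14 of their 16 windows did. Over all genes in the table the share was 38.6% of windows and 41.5% of genes, with ACGTG in 16.6% and GCGTG in 28.2% of windows. A match only describes these letters. No binding was measured.

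In fat of vehicle-treated ob/ob mice, transcripts of the lactate-forming enzyme Ldha, the aldolase Aldoa and the vasodilator peptide Adm were higher than in wild type, by 3.68-fold, 2.51-fold and 3.01-fold, and that of the oxygen sensor Egln3 was lower, by a narrow call at low signal. Hif1a, Pgk1 and Pkm had higher means without passing the threshold, and Slc16a3 and Bnip3 overlapped wild type. So 4 of the 9 measured genes passed limma's test at an adjusted p under 0.05, where 14.1% of all clusters did. Of the 4, 3 were higher, where 9.02% of clusters were higher, and 1 was lower, where 5.05% were. Without wild type arrays 1 and 2 the log2 difference shrank from 1.88 to 1.12 for Ldha and from 1.33 to 0.81 for Aldoa. For Egln3 it shrank from −2.14 to −1.20, and these calls did not hold. That of Adm went from 1.59 to 1.94. The call of Egln3 ended in 13 of 21 alternative analyses. The ob/ob and wild type arrays did not overlap for 7 of the 9 genes, against 28.9% of all clusters. The median log2 difference of the 9 genes was 1.04, beside −0.037 over all clusters. Between VE and ob/ob vehicle 0 of the 9 genes passed limma's adjusted threshold, where 0.0255% of clusters did, and 1 (Adm) had an unadjusted p under 0.05, where 4.56% of clusters had one. The arrays of those 2 groups did not overlap for 2 of the 9, Adm and Aldoa, against 12.6% of clusters. No other tool was run.

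The values of these genes rest on arrays that differ in cell content. Summed over 22 measured macrophage markers, the log2 level was 13.68 to 15.70 in wild type, 19.99 to 20.90 in ob/ob vehicle and 20.09 to 20.34 in VE, and 19 of the 22 were higher in ob/ob vehicle against wild type by limma. For 16 epithelial markers the summed level was 12.41 to 15.05 in wild type, 8.92 to 9.02 in ob/ob vehicle and 8.53 to 9.50 in VE, and 12 of the 16 were lower in ob/ob vehicle. For 10 smooth muscle markers the sum spanned 13.54 to 19.92 among the wild type arrays, with wild type array 2 highest, against 15.06 to 15.72 in ob/ob vehicle and 14.70 to 15.28 in VE, and 2 of the 10 were lower in ob/ob vehicle. For 14 adipocyte markers the summed level was 21.01 to 21.53 in wild type, 21.48 to 21.73 in ob/ob vehicle and 21.62 to 21.90 in VE, so fat was present on every array. The sum is dominated by the brightest markers, and the median marker level was 15.57, 15.39 and 16.92 on wild type arrays 1, 2 and 3, against 17.09 to 17.71 on the ob/ob arrays. For 9 epididymis and testis markers the summed level was 13.71, 17.14 and 9.04 on wild type arrays 1, 2 and 3. It was 7.97 to 9.27 in ob/ob vehicle and 7.85 to 7.92 in VE. By limma, 1 of the 9 was lower in ob/ob vehicle against wild type. Of the 14 adipocyte markers, 1 was higher and 1 lower. Over all clusters 9.02% were higher and 5.05% lower in that comparison. The part of these cell types in each result was not tested. In bulk tissue, fewer cells of a type and less RNA per cell cannot be told apart. Across genes, which are no independent replicates, Pearson's r was 0.933 to 0.956 between wild type arrays and 0.980 to 0.988 within the ob/ob groups, so calls against wild type are also given without wild type arrays 1 and 2, which carry most of the epithelial signal. In that fit the 1 wild type array left is assumed to vary like the ob/ob groups.

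**Figure D1:**
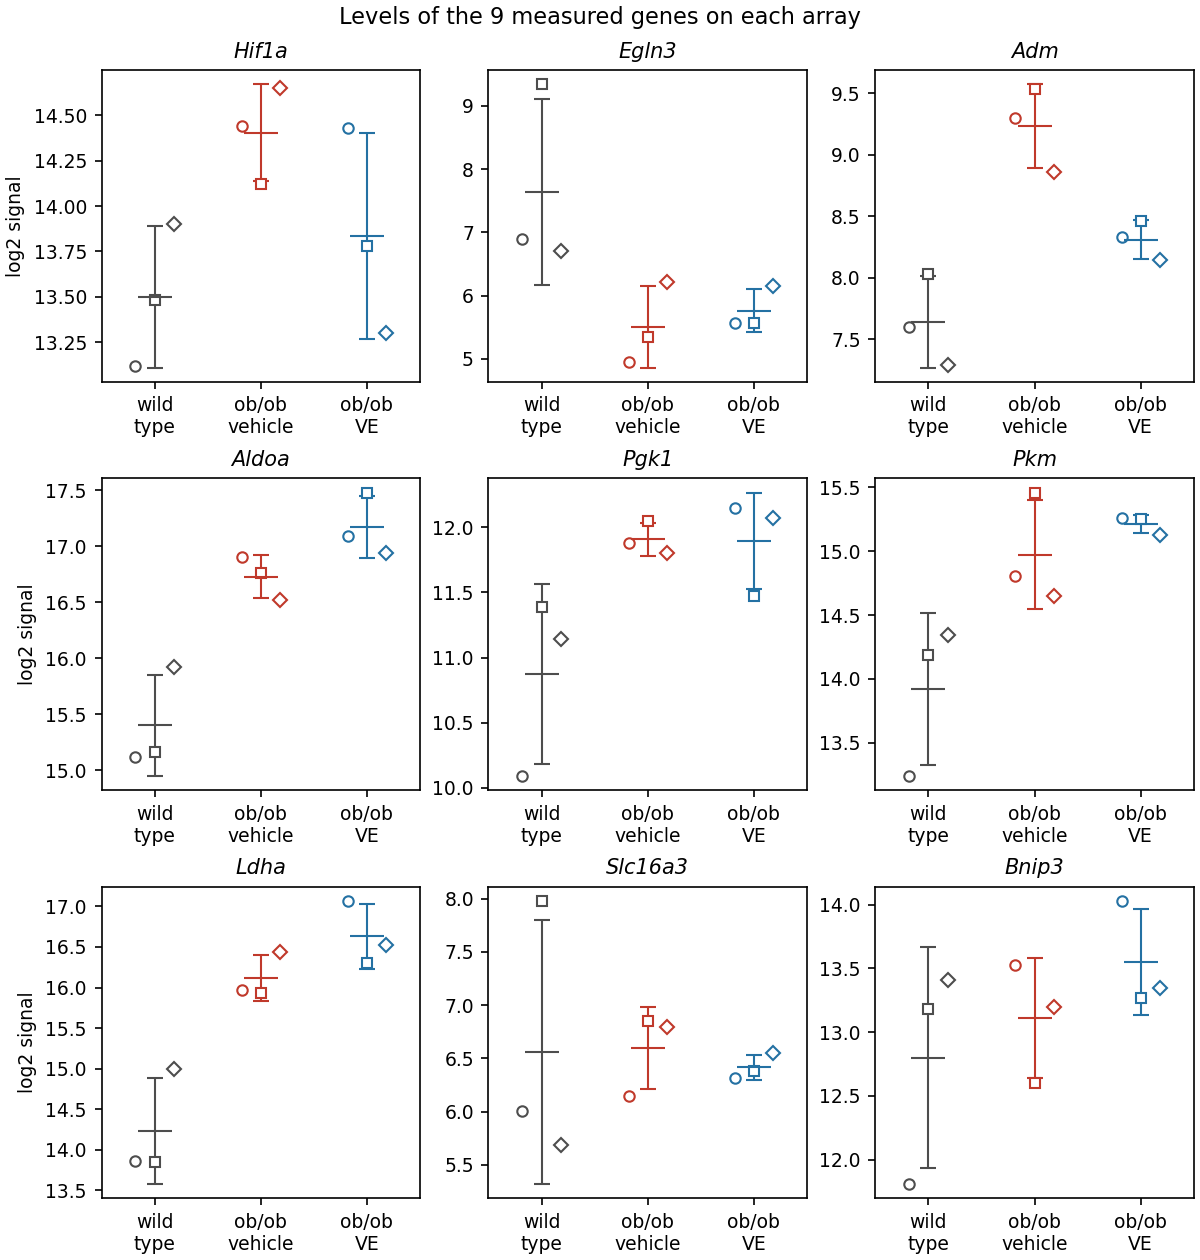
Log2 signal of the 9 measured genes (vertical axis, own scale per panel) on each array of the 3 groups (horizontal axis). Circles, squares and diamonds are replicates 1, 2 and 3, the horizontal line is the group mean and the bar its SD. Ldha, Aldoa, Pgk1, Pkm and Adm lay above all wild type arrays in both ob/ob groups, and Adm lay highest in ob/ob vehicle.

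Hif1a (transcript cluster TC1200000652.mm.2), the oxygen-regulated subunit of the factor, read 13.12, 13.48 and 13.90 in wild type, 14.44, 14.12 and 14.65 in ob/ob vehicle, and 14.43, 13.78 and 13.30 in VE. Every ob/ob vehicle array was above every wild type array, and the VE arrays spread over both ranges. The mean log2 difference between ob/ob vehicle and wild type was 0.90 ± 0.33 (SE, n = 3 per group), with limma's adjusted p = 0.101, and it missed the threshold. It was 0.50 (adjusted p = 0.55) without wild type arrays 1 and 2. Between VE and ob/ob vehicle it was −0.57, with a 95% interval of −1.30 to 0.17 by limma, and between VE and wild type it was 0.34, with an interval of −0.40 to 1.07. The last difference changed sign, to −0.19, with quantile normalization.

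Egln3 (transcript cluster TC1200001742.mm.2), a prolyl hydroxylase that is itself a target of the factor, read 6.89, 9.34 and 6.70 in wild type, 4.95, 5.35 and 6.21 in ob/ob vehicle, and 5.57, 5.57 and 6.15 in VE. Wild type array 2 stood far above all others, and the other two wild type arrays were still above every ob/ob array. The log2 difference between ob/ob vehicle and wild type was −2.14 ± 0.63 (SE, n = 3 per group; limma, adjusted p = 0.0479). That call was narrow. It ended in 13 of 21 alternative analyses. Among these were the ones that left out wild type array 2, any 1 ob/ob vehicle array or any 1 VE array, with adjusted p from 0.0538 to 0.146 by limma. Without wild type arrays 1 and 2 the difference was −1.20 (limma, adjusted p = 0.152). The ob/ob levels lay near or below the medians of their arrays, which were 6.11 to 6.18, and no level over background was available, so the size of a fold is not established. Smooth muscle markers were also highest on wild type array 2, with Acta2 at 18.29 there and 15.52 and 12.94 on the other wild type arrays. The sums of epithelial markers (15.05) and of epididymis and testis markers (17.14) were highest on that array as well. The part of these cell types in the result was not tested. In VE the difference from wild type was −1.88 (limma, adjusted p = 0.0607), or −0.94 (adjusted p = 0.233) without wild type arrays 1 and 2, and the difference from ob/ob vehicle was 0.26, with an interval of −1.14 to 1.66.

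Among 19 measured subunits, sensors and regulators of the factor, 1 was higher and 1 lower in ob/ob vehicle against wild type, where 9.02% and 5.05% of clusters were. The list's median log2 difference was 0.047, or 0.093 without wild type arrays 1 and 2. The higher one was Vhl, the ligase subunit that binds the hydroxylated alpha subunit, at 8.15, 8.13 and 9.16 in wild type, 9.84, 9.68 and 10.42 in ob/ob vehicle, and 10.88, 10.92 and 10.43 in VE. All 3 groups were separate, in that order, and the ob/ob vehicle difference from wild type was 1.50 (limma, adjusted p = 0.0146), which became 1.28 (adjusted p = 0.0589) without ob/ob vehicle array 3 and 0.82 (adjusted p = 0.213) without wild type arrays 1 and 2. The difference between VE and ob/ob vehicle was 0.76 (limma, adjusted p = 1). Elob, the elongin B adaptor of the same ligase, read 10.49, 11.27 and 11.41 in wild type, 11.95, 11.26 and 11.57 in ob/ob vehicle, and 13.44, 13.18 and 13.51 in VE. The VE arrays lay above the other 6, and the log2 difference from ob/ob vehicle was 1.78 ± 0.30 (SE, n = 3 per group), the smallest p of the list in that comparison (limma, adjusted p = 0.131). Elob passed in a fit of those 2 groups alone (limma, adjusted p = 0.0429) and with array weights (adjusted p = 0.0101). It also passed at the submitters' threshold, an unadjusted p under 0.05 with a fold over 1.1. In the other 17 of 20 alternatives Elob did not pass (limma's fit, adjusted p up to 0.767). Its difference between VE and wild type was 2.32 (limma, adjusted p = 0.000628). For the alpha paralogs Epas1 and Hif3a the ob/ob vehicle differences from wild type were 1.05 and −0.70 (limma, adjusted p = 0.0895 and 0.265), and for the sensors Egln1 and Egln2 they were 0.093 and −0.73 (adjusted p = 0.868 and 0.126).

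Ldha (transcript cluster TC0700000881.mm.2), the lactate dehydrogenase subunit that favours lactate formation, gave the highest fold change among the glycolytic members. It read 13.86, 13.85 and 14.99 in wild type, 15.97, 15.93 and 16.44 in ob/ob vehicle, and 17.07, 16.30 and 16.52 in VE. Every ob/ob array of both groups was above every wild type array, with wild type array 3 nearest to them. The log2 difference between ob/ob vehicle and wild type was 1.88 ± 0.35 (SE, n = 3 per group; limma, adjusted p = 0.00619), and that between VE and wild type was 2.40 (limma, adjusted p = 0.00142), a 5.27-fold difference. Against ob/ob vehicle, VE differed by 0.52, with a 95% interval of −0.27 to 1.30 by limma. With wild type arrays 1 and 2 left out, the differences from wild type were 1.12 in ob/ob vehicle (limma, adjusted p = 0.0945), which ended the call, and 1.64 in VE (adjusted p = 0.0194).

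Aldoa (transcript cluster TC0700004296.mm.2), the aldolase that splits fructose bisphosphate, read 15.12, 15.16 and 15.92 in wild type, 16.90, 16.76 and 16.52 in ob/ob vehicle, and 17.09, 17.48 and 16.94 in VE. The 3 groups did not overlap, with VE highest. The log2 difference between ob/ob vehicle and wild type was 1.33 ± 0.28 (SE, n = 3 per group; limma, adjusted p = 0.0108), and between VE and wild type it was 1.77 (limma, adjusted p = 0.00204). VE and ob/ob vehicle differed by 0.44, with an interval of −0.18 to 1.06 (limma, adjusted p = 1), so their separation did not pass. Leaving out wild type arrays 1 and 2 gave differences of 0.81 in ob/ob vehicle (limma, adjusted p = 0.164), past the threshold no longer, and 1.25 in VE (adjusted p = 0.0333).

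Pkm (transcript cluster TC0900000751.mm.2), the pyruvate kinase gene of most tissues outside the liver, read 13.24, 14.19 and 14.34 in wild type, 14.81, 15.46 and 14.65 in ob/ob vehicle, and 15.26, 15.25 and 15.13 in VE. Both ob/ob groups were above wild type and they overlapped each other. The difference from wild type was 1.05 in ob/ob vehicle (limma, adjusted p = 0.0614) and 1.29 ± 0.33 (SE, n = 3 per group) in VE (limma, adjusted p = 0.0213). The VE call ended without any 1 of the VE arrays (adjusted p from 0.0548 to 0.0702), with quantile normalization (0.76, adjusted p = 0.111), without empirical Bayes (adjusted p = 0.0634) and without wild type arrays 1 and 2 (0.87, adjusted p = 0.145). Conversely the ob/ob vehicle difference passed without wild type array 3 (1.26, adjusted p = 0.0302) and was 0.63 (adjusted p = 0.326) without wild type arrays 1 and 2. Probes of Pkm measure the gene and were not used to tell its splice forms apart.

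Pgk1 (transcript cluster TC0X00001071.mm.2), the phosphoglycerate kinase that yields the first ATP of the pathway, read 10.09, 11.39 and 11.14 in wild type, 11.88, 12.05 and 11.80 in ob/ob vehicle, and 12.15, 11.47 and 12.07 in VE. Wild type array 1 was lowest by more than 1 log2 unit, and all ob/ob arrays were above all wild type arrays. The differences from wild type were 1.04 in ob/ob vehicle (limma, adjusted p = 0.0758) and 1.02 in VE (adjusted p = 0.063). Both passed without wild type array 2, at 1.30 (limma, adjusted p = 0.0411) and 1.28 (adjusted p = 0.0342), and with wild type arrays 1 and 2 left out they were 0.77 (adjusted p = 0.206) and 0.76 (adjusted p = 0.187). VE differed from ob/ob vehicle by −0.013, with an interval of −0.78 to 0.76.

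**Figure D2:**
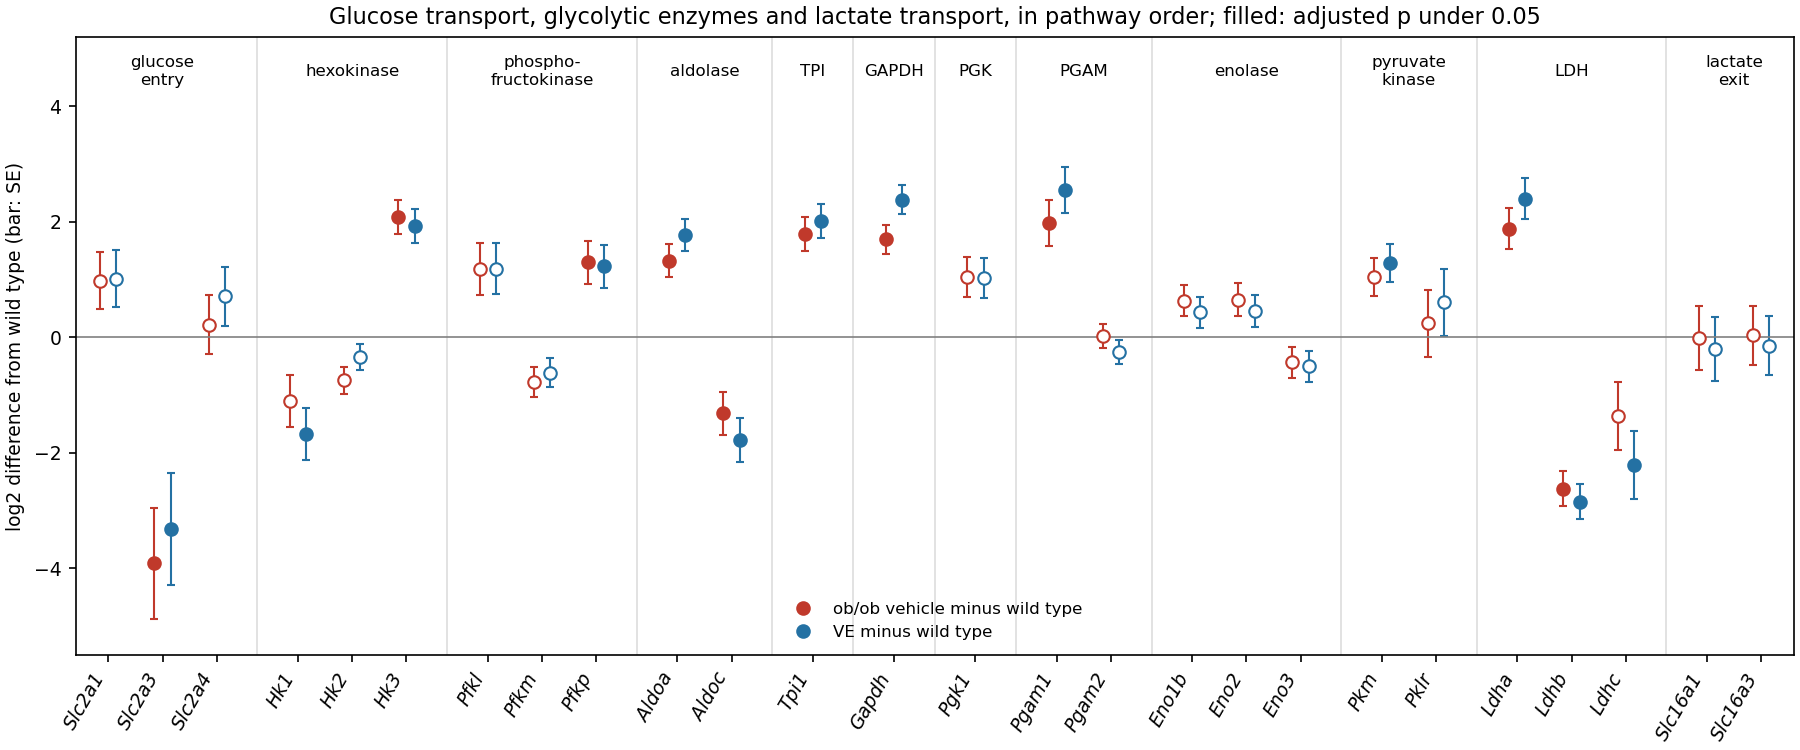
Log2 difference from wild type (vertical axis; bars are the SE of limma's fit) for genes of glucose entry, glycolysis and lactate exit in pathway order (horizontal axis), for ob/ob vehicle (red) and VE (blue), with filled circles for adjusted p under 0.05. Gapdh, Tpi1, Pgam1, Ldha and Aldoa lay above 0 in both, and Ldhb, Aldoc and Slc2a3 lay below.

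Across the pathway, enzymes lay on both sides of 0. Of 22 measured glycolytic enzymes, which include Aldoa, Pgk1, Pkm and Ldha, 7 were higher and 2 lower in ob/ob vehicle against wild type. Over all clusters 9.02% were higher and 5.05% lower. The list's median log2 difference was 0.64, beside −0.037 over all clusters. It was 0.305 without wild type arrays 1 and 2. The higher ones were Hk3, the hexokinase of blood-derived cells, by 2.08, Pgam1 by 1.97, Ldha, Tpi1 by 1.78, Gapdh by 1.70, Aldoa and Pfkp by 1.30 (limma, adjusted p from 0.00129 to 0.0446). Pgam1 and Pfkp are named beyond the rule for named genes, so that the count is complete. In VE 8 were higher and 4 lower than in wild type, where 12.4% and 7.58% of clusters were. The median was 0.53, or 0.21 without wild type arrays 1 and 2. Between VE and ob/ob vehicle 0 of 22 passed limma's adjusted threshold. Gapdh, at 0.68 (limma, adjusted p = 0.961), was the 1 with an unadjusted p under 0.05, where 4.56% of clusters had one. Hk2 came next, at 0.40. Without wild type arrays 1 and 2 the ob/ob vehicle differences were 2.37 for Hk3, 1.36 for Gapdh, 1.14 for Tpi1 and 1.42 for Pgam1. That of Pfkp was 0.39, and its call did not hold. Pfkp also missed the threshold without any of 7 single arrays, wild type 1 and 2, ob/ob vehicle 2 and 3 and all VE arrays (adjusted p from 0.0679 to 0.148). Many glycolytic genes have processed pseudogenes of near-identical sequence, from which an array may not fully separate them.

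Lower levels in ob/ob fat were found for 2 isoforms of the same steps. Ldhb, the subunit that favours use of lactate, read 10.53, 10.37 and 9.96 in wild type, 7.92, 7.06 and 8.01 in ob/ob vehicle, and 7.49, 7.16 and 7.68 in VE. Every ob/ob array was lower than every wild type array, and the difference was −2.62 ± 0.30 (SE, n = 3 per group; limma, adjusted p = 0.000398) in ob/ob vehicle and −2.84 (adjusted p = 0.000225) in VE. It held without wild type arrays 1 and 2, at −2.30 (limma, adjusted p = 0.00672). Within an array, the level of Ldha minus that of Ldhb was 3.33 to 5.03 in wild type, 8.05 to 8.87 in ob/ob vehicle and 8.84 to 9.58 in VE. That quantity, computed after the values were seen, was thus larger by 4.50 in ob/ob vehicle against wild type, and it is given as a description, since 3 against 3 arrays cannot go below p = 0.1 in an exact permutation test. VE and ob/ob vehicle overlapped, with a change of 0.74. Such a difference between 2 probe sets shows that the transcripts changed unequally and says nothing of their relative amounts.

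Aldoc, the aldolase isoform best known from brain, read 6.54, 6.24 and 7.38 in wild type, 5.05, 5.56 and 5.60 in ob/ob vehicle, and 4.44, 4.81 and 5.58 in VE. Its difference from wild type was −1.32 in ob/ob vehicle (limma, adjusted p = 0.0417) and −1.78 in VE (adjusted p = 0.00899). The first call ended without any of 6 single arrays, those of ob/ob vehicle, wild type 1 and 3 and VE 2 (adjusted p from 0.0669 to 0.131), and held without wild type arrays 1 and 2, at −1.98 (adjusted p = 0.0192). The change in Aldoa minus Aldoc was 2.64 between ob/ob vehicle and wild type, with ranges of 10.92 to 11.85 and 8.54 to 8.92. That pair was chosen after the values were seen and is given as a description. All ob/ob levels of Aldoc lay below the medians of their arrays (6.11 to 6.18). The size of its fold and of this change is therefore not established. The other isoforms Eno2, Eno3 and Pklr had ob/ob vehicle differences of 0.65, −0.43 and 0.24 (limma, adjusted p = 0.16, 0.337 and 0.837).

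Slc16a3 (transcript cluster TC1100002052.mm.2), the transporter that exports lactate from glycolytic cells, read 6.01, 7.98 and 5.69 in wild type, 6.15, 6.85 and 6.79 in ob/ob vehicle, and 6.32, 6.38 and 6.55 in VE. The 3 groups overlapped, and wild type array 2 was highest. That array also had the most smooth muscle, epithelial and epididymis and testis signal. The difference between ob/ob vehicle and wild type was 0.037, with a 95% interval of −1.10 to 1.18 by limma, and it changed sign under several alternatives. The intervals were −1.32 to 0.96 between VE and ob/ob vehicle and −1.28 to 1.00 between VE and wild type. Its relative Slc16a1, which carries lactate both ways, differed by −0.02 between ob/ob vehicle and wild type (limma, adjusted p = 0.987).

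Of 22 measured genes of glucose and lactate transport and control of the pathway, 2 were higher and 1 was lower in ob/ob vehicle against wild type. Over all clusters 9.02% were higher and 5.05% lower. The list's median difference was 0.14, or 0.22 without wild type arrays 1 and 2. Slc2a3, a high-affinity glucose transporter, read 8.56, 10.71 and 5.71 in wild type, 4.53, 4.84 and 3.87 in ob/ob vehicle, and 4.58, 5.11 and 5.34 in VE. The wild type arrays themselves spanned 5 log2 units. Their order is that of the smooth muscle markers, and also of the epithelial and the epididymis and testis markers. The part of these cell types was not tested. The ob/ob levels lay below the medians of their arrays. The difference was −3.91 (limma, adjusted p = 0.023), and −1.30 (adjusted p = 0.0925) without wild type arrays 1 and 2. It also missed the threshold without wild type array 1 or any ob/ob vehicle array (adjusted p from 0.0604 to 0.0803). Pdk4, the kinase that shuts pyruvate dehydrogenase, was higher by 2.23 (limma, adjusted p = 0.0175), and Pdp1, the phosphatase that opens it again, by 1.17 (adjusted p = 0.016). Neither passed without ob/ob vehicle array 2 or 3 (adjusted p from 0.0581 to 0.0764 for Pdk4 and from 0.0547 to 0.065 for Pdp1), nor without wild type arrays 1 and 2 (1.55 and 0.78). In VE 4 were higher and 1 lower than in wild type, where 12.4% and 7.58% of clusters were. The median was 0.49, or 0.30 without wild type arrays 1 and 2. Between VE and ob/ob vehicle 0 of 22 passed limma's adjusted threshold, and 1 had an unadjusted p under 0.05, Bsg, the chaperone of the lactate transporters (a difference of 0.46, adjusted p = 1). Slc2a1, the transporter most often used as a readout of the factor, had a difference of 0.98 between ob/ob vehicle and wild type (limma, adjusted p = 0.234), or 0.24 (adjusted p = 0.86) without wild type arrays 1 and 2.

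Adm (transcript cluster TC0700001630.mm.2), which encodes adrenomedullin, a vasodilator peptide induced by hypoxia, was the only one of the 9 genes whose VE arrays lay wholly between the other groups. It read 7.60, 8.03 and 7.29 in wild type, 9.30, 9.53 and 8.86 in ob/ob vehicle, and 8.33, 8.46 and 8.14 in VE. No array of one group overlapped another group. The log2 difference between ob/ob vehicle and wild type was 1.59 ± 0.27 (SE, n = 3 per group; limma, adjusted p = 0.00363), and this call held in all 21 alternatives (adjusted p from 0.00292 to 0.021), at 1.94 without wild type arrays 1 and 2. Between VE and ob/ob vehicle the difference was −0.92, a 1.89-fold lower level with a 95% interval of −1.52 to −0.32 (limma, adjusted p = 0.717). After adjustment over all clusters it did not pass, nor in any alternative that adjusted p-values (adjusted p from 0.182 to 1). Between VE and wild type the difference was 0.67 (limma, adjusted p = 0.11). The comparisons of ob/ob vehicle with wild type and of VE with ob/ob vehicle share the ob/ob vehicle arrays.

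**Figure D3:**
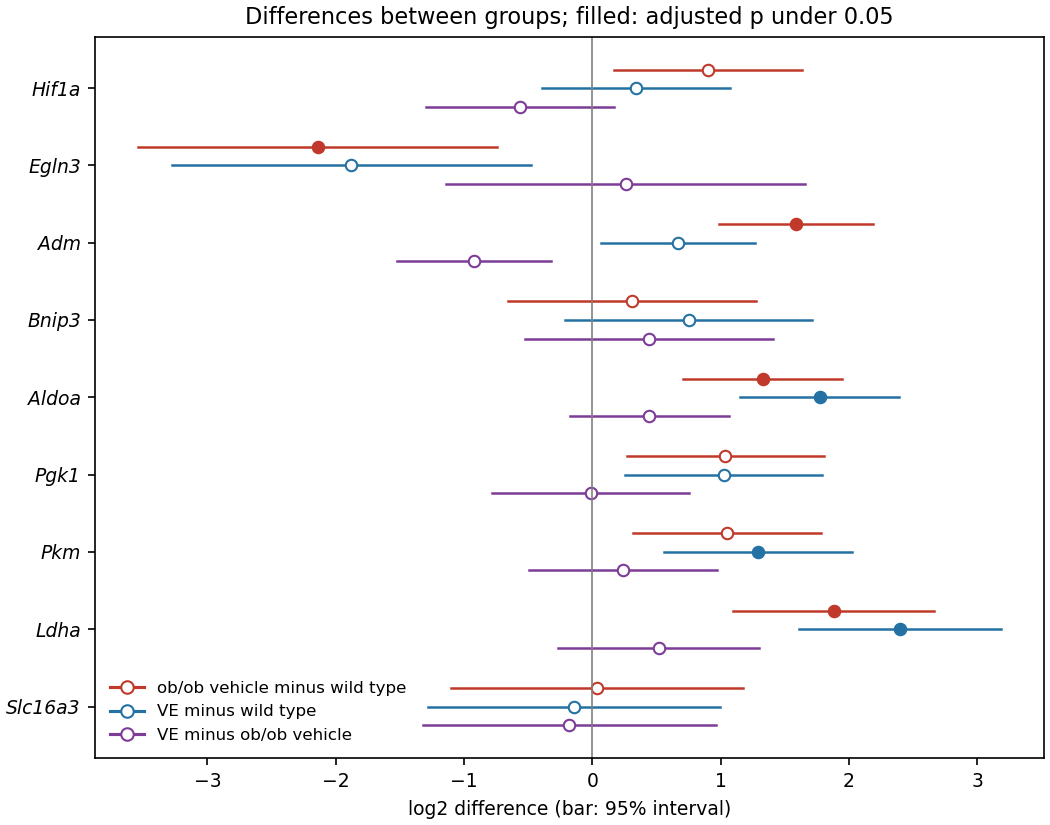
Log2 differences (horizontal axis; bars are limma's 95% intervals) of the 9 measured genes (vertical axis) for ob/ob vehicle minus wild type (red), VE minus wild type (blue) and VE minus ob/ob vehicle (purple), with filled circles for adjusted p under 0.05. Filled circles appear for Ldha, Aldoa, Adm, Egln3 and, in VE minus wild type, Pkm, and the only purple interval that leaves out 0 is that of Adm.

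Of 10 measured genes of adrenomedullin-type ligands, their processing and their receptors, 2 were higher and 2 lower in ob/ob vehicle against wild type. Over all clusters 9.02% were higher and 5.05% lower. Pam, the enzyme that amidates the peptide into its active form, read 11.74, 12.51 and 12.19 in wild type, 15.50, 15.75 and 16.29 in ob/ob vehicle, and 16.28, 15.83 and 15.09 in VE. The ob/ob arrays were all more than 2 log2 units above the wild type arrays, by 3.70 ± 0.35 (SE, n = 3 per group; limma, adjusted p = 0.000125) in ob/ob vehicle and 3.59 (adjusted p = 0.00015) in VE. The first was 3.66 without wild type arrays 1 and 2 (limma, adjusted p = 0.0011).

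Ramp3 and Ramp1 encode proteins that pair with the receptor Calcrl and set its ligand. Ramp3 read 6.80, 9.41 and 6.48 in wild type, 4.63, 3.96 and 4.28 in ob/ob vehicle, and 4.80, 4.25 and 4.36 in VE, lower in every ob/ob array than in every wild type array. Its difference was −3.27 (limma, adjusted p = 0.00746), and −2.19 without wild type arrays 1 and 2. The ob/ob levels lay below the medians of their arrays (6.11 to 6.18), so the size of the fold is not established. Wild type array 2 was highest, as it was for Egln3 and the smooth muscle markers. Ramp1 read 10.57, 11.08 and 7.33 in wild type, 6.64, 6.05 and 7.29 in ob/ob vehicle, and 7.09, 7.09 and 6.04 in VE. Wild type array 3 was within 0.1 of the highest ob/ob vehicle array, and the difference was −3.00 (limma, adjusted p = 0.0375), or −0.67 (adjusted p = 0.513) without wild type arrays 1 and 2. It missed the threshold without any of 8 single arrays, all but wild type array 3 (adjusted p from 0.0519 to 0.134). The receptor Calcrl differed by 0.41 (limma, adjusted p = 0.75), Ramp2 by −0.51 (adjusted p = 0.648), and Ackr3, a scavenger receptor of the peptide, by 2.14 (adjusted p = 0.0864) with no overlap of the 2 groups, none of them past the threshold. Calcrl and Ackr3 are named after their values were seen. In VE 1 was higher and 2 lower than in wild type, where 12.4% and 7.58% of clusters were. The list's median there was 0.375, or 0.025 without wild type arrays 1 and 2. Between VE and ob/ob vehicle 0 of 10 passed limma's adjusted threshold. Adm was the 1 at an unadjusted p under 0.05, where 4.56% of clusters had one, and Ramp2 came next, at 1.15. The related ligand Adm2 differed by −0.46 between ob/ob vehicle and wild type (limma, adjusted p = 0.324).

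**Figure D4:**
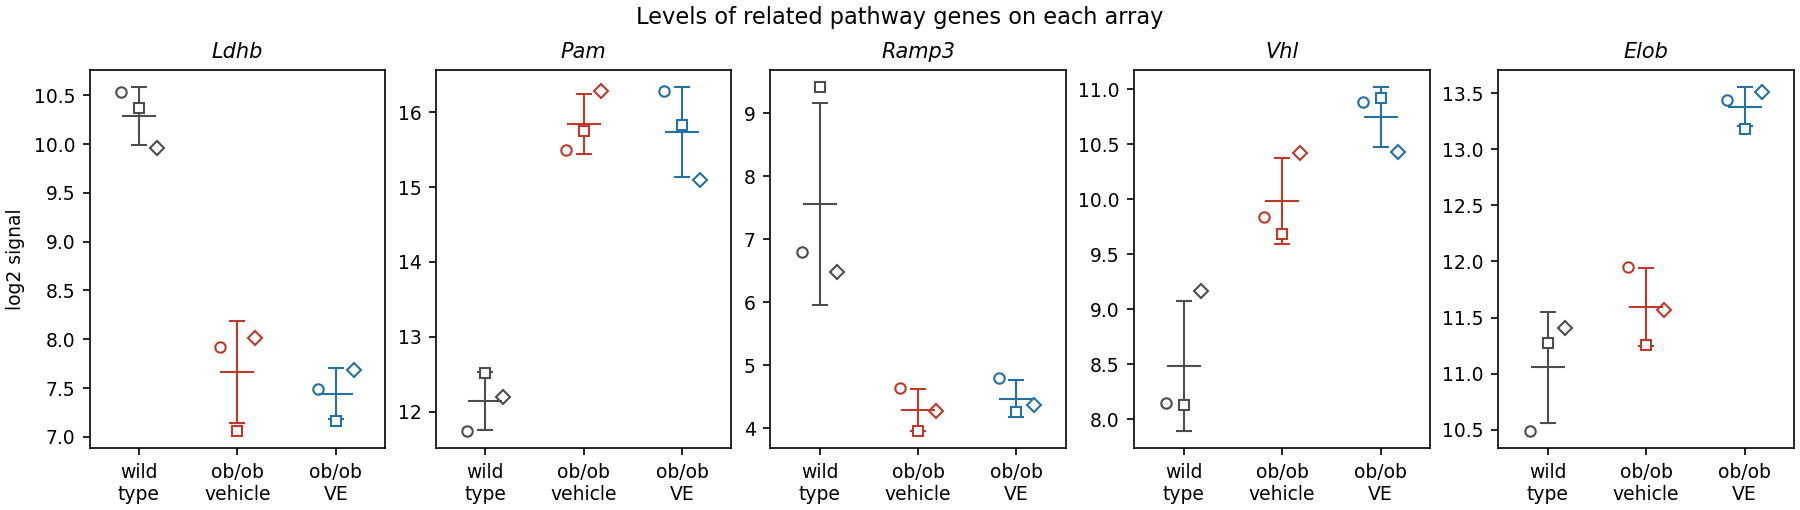
Log2 signal of Ldhb, Pam, Ramp3, Vhl and Elob (vertical axis, own scale per panel) on each array of the 3 groups (horizontal axis). Symbols are replicates 1, 2 and 3 as circles, squares and diamonds, lines are group means and bars are SDs. Both ob/ob groups lay apart from wild type for Ldhb, Pam, Ramp3 and Vhl, and the VE arrays stood above all others for Elob and, by a narrow margin, for Vhl.

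Other targets of the factor outside glycolysis were mixed. Of 43 measured, which include Adm, Bnip3 and Egln3, 7 were higher and 2 lower in ob/ob vehicle against wild type. The 43 also hold Aldoc, a glycolytic enzyme that was already counted in the list of glycolytic enzymes. Over all clusters 9.02% were higher and 5.05% lower. The list's median difference was 0.23, or 0.09 without wild type arrays 1 and 2. Plod1, a collagen lysyl hydroxylase, read 8.48, 8.74 and 9.53 in wild type, 11.84, 12.18 and 11.70 in ob/ob vehicle, and 12.31, 12.36 and 11.60 in VE, a difference of 2.99 ± 0.33 in ob/ob vehicle (SE, n = 3 per group; limma, adjusted p = 0.000288). Angptl4, an inhibitor of lipoprotein lipase that is also raised by fatty acid receptors, read 13.59, 13.23 and 13.34 in wild type, 16.84, 15.95 and 16.35 in ob/ob vehicle, and 16.21, 16.59 and 15.03 in VE, likewise a difference of 2.99 (limma, adjusted p = 0.00082). Both genes lay above wild type on every ob/ob array and passed without wild type arrays 1 and 2, at 2.38 and 3.04. The others higher were Adm, Anxa2 (2.07), Hilpda (1.85, or 1.57 with adjusted p = 0.0672 by limma without wild type arrays 1 and 2), Vldlr (1.34) and Rora (1.18), the last 4 named after their values were seen, and the lower ones were Egln3 and Aldoc. Rora passed in ob/ob vehicle only while wild type array 1, the ob/ob vehicle arrays and the VE arrays were all kept (adjusted p from 0.0548 to 0.157 without 1 of them), Vldlr missed without wild type array 1 or ob/ob vehicle array 2 or 3 (0.0654 to 0.0863), and without wild type arrays 1 and 2 the counts were 5 higher and 5 lower. Vegfa, the vascular growth factor often taken as the main target, had a difference of −0.63 in ob/ob vehicle (limma, adjusted p = 0.325) and fell by 1.26 in VE against wild type (adjusted p = 0.0423), a call that ended without any of 8 single arrays, all but wild type array 2 (adjusted p from 0.051 to 0.147).

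In VE against wild type 9 of the 43 targets were higher and 2 lower, a balance that became 5 higher and 6 lower without wild type arrays 1 and 2. With all arrays kept, 12.4% of all clusters were higher and 7.58% lower in VE against wild type. Against ob/ob vehicle 0 of the 43 targets passed limma's adjusted threshold, with 3 at an unadjusted p under 0.05, where 4.56% of clusters had one. After Adm the smallest p was that of Ddit4, a stress-induced inhibitor of mTORC1, at 1.14 (limma, adjusted p = 0.961).

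Bnip3 (transcript cluster TC0700004474.mm.2), a mitochondrial membrane protein that tags mitochondria for removal, read 11.81, 13.18 and 13.41 in wild type, 13.53, 12.60 and 13.20 in ob/ob vehicle, and 14.03, 13.27 and 13.35 in VE. Wild type array 1 was low and the remaining arrays overlapped. The differences were 0.31 between ob/ob vehicle and wild type, with a 95% interval of −0.66 to 1.28 by limma, 0.44 (−0.53 to 1.41) between VE and ob/ob vehicle, and 0.75 (−0.22 to 1.72) between VE and wild type. The first changed sign without wild type array 1, at −0.19 (limma, adjusted p = 0.803), and with quantile normalization, at −0.059.

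Of 17 measured mitophagy receptors and partners of BNIP3, 2 were higher and 0 lower in ob/ob vehicle against wild type by limma. Over all clusters 9.02% were higher and 5.05% lower. An unadjusted p under 0.05 in either direction was found for 5, where 28.4% of clusters had one. The median difference was 0.29, or 0.17 without wild type arrays 1 and 2. The higher ones were Sqstm1, the autophagy receptor p62, by 1.32 (limma, adjusted p = 0.0148) and Bcl2l13, a mitochondrial receptor, by 1.33 (adjusted p = 0.0315). Sqstm1 missed the threshold without ob/ob vehicle array 1 or 2 (adjusted p from 0.0526 to 0.0657) and with quantile normalization (adjusted p = 0.0504), Bcl2l13 without any of 4 single arrays, ob/ob vehicle 2 and 3, wild type 2 and VE 1 (0.0509 to 0.117), and neither passed without wild type arrays 1 and 2. In VE 7 were higher and 1 lower than in wild type, where 12.4% and 7.58% of clusters were. The median was 0.75, or 0.52 without wild type arrays 1 and 2. Against ob/ob vehicle 0 of 17 passed limma's adjusted threshold and 3 had an unadjusted p under 0.05, where 4.56% of clusters had one. In that comparison 15 of 17 differences were above 0, where 46.7% of all clusters were, and the list's median was 0.36. The smallest p values belonged to Gabarap, an autophagosome membrane protein (13.84, 13.78 and 14.26 in wild type, 15.27, 14.71 and 13.87 in ob/ob vehicle, 16.07, 15.99 and 15.67 in VE), at 1.29 (limma, adjusted p = 0.589), and to Bnip3l, the close relative of Bnip3, at 0.69 (adjusted p = 0.987). The VE arrays of Gabarap lay above the other 6. Between VE and ob/ob vehicle, 18 of 22 differences were also above 0 in the list of glucose and lactate transport and control. The counts were 9 of 19 for subunits and regulators and 22 of 43 for other targets. They were 11 of 22 for glycolytic enzymes and 5 of 10 for the adrenomedullin list. Genes on the same arrays are not independent, so these counts are descriptions.

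Against wild type, VE-treated ob/ob mice had higher Ldha, Aldoa and Pkm, so 3 of the 9 genes passed limma's test, where 20.0% of clusters did, 12.4% higher and 7.58% lower. The arrays did not overlap for 6 of the 9, against 37.2% of all clusters, and the median difference was 0.75, beside −0.067 over all clusters. Without wild type arrays 1 and 2 the difference of VE from wild type was 1.64 for Ldha, 1.25 for Aldoa and 0.87 for Pkm. That call of Pkm did not hold. By limma's moderated F test over the 3 groups, 4 of the 9 differed, Ldha (adjusted p = 0.00288), Aldoa (0.00445), Adm (0.00801) and Pkm (0.0434), where 15.7% of clusters did. This comparison and that of ob/ob vehicle with wild type share the wild type arrays, so they are given side by side.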

How the data were processed

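Each array gave 1 deposited log2 value per transcript cluster, rounded to 2 decimals by the authors, and values were used as deposited. SST-RMA, a method that corrects, normalizes and summarizes probes, was run in Transcriptome Analysis Console (4.0.2 per the series' design text, while the submitters' processing notes say 4). The genome build was not given in the sources used here, and scanner files and detection calls were not used here. There is no read depth, so the 3 arrays per group set the precision. Of 22206 clusters, 2634 without a gene symbol in the platform annotation were left out, which leaves 19572 clusters of 19505 genes, and 0 columns belonged to other samples.

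The 3 group means over all 9 arrays were estimated by limma (3.58.1, R 4.3.3) with empirical Bayes moderation and Benjamini-Hochberg adjustment across all 19572 clusters of a comparison. A gene passed at an adjusted p under 0.05, tests were two-sided, and p-values measure only the spread between these mice. Replicate numbers were checked for pairing: the deviations of same-numbered arrays from their group means correlated at −0.06 to 0.18. The highest was that of replicate 2 in VE and ob/ob vehicle. Arrays of different number were not compared, so the check cannot exclude a batch shared by number. No block was used in the main fit. Genes named are the listed members, the extremes of each pathway list by moderated t between ob/ob vehicle and wild type, the 2 smallest p of each list between VE and ob/ob vehicle, paralogs, Vegfa and Slc2a1. Members, lists and rules were chosen with earlier results of these data known. The fit was tested on simulated data, with 50 changed clusters per fold between ob/ob vehicle and wild type. It recovered 0 of 50 at 1.5-fold, 4 at 2-fold, 40 at 4-fold and 48 at 16-fold. Changes of 2-fold or less were thus mostly missed in the simulation. Only 50 clusters per fold changed there, while 2754 clusters passed in the real comparison. The adjustment is stricter when fewer clusters change, so these counts do not give the sensitivity of the real comparison. Other settings tried were 2-group fits, a replicate block, other priors, array weights, quantile normalization, median centring, other filters and thresholds, wild type arrays 1 and 2 left out, and each array left out in turn.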

Additional observations from a re-analysis of the deposited data

How the results depend on the processing

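Of the members, Adm kept its ob/ob vehicle call in every alternative, Ldha and Aldoa lost theirs only without wild type arrays 1 and 2, and Egln3 lost its call in 13 of 21. Between ob/ob vehicle and wild type, 4 members passed by limma, 7 at the submitters' threshold (unadjusted p under 0.05 and fold over 1.1), and 3 to 5 with 1 array left out. Between VE and ob/ob vehicle 0 passed, and 1 at the submitters' threshold. Between VE and wild type 3 passed, 6 at the submitters' threshold, 5 at an adjusted p under 0.1, and 2 to 4 with 1 array left out. Clusters called between ob/ob vehicle and wild type numbered 2754, and 1814 with only the 2 groups in the fit, 1675 without empirical Bayes, 5555 at the submitters' threshold and 1641 to 3545 with 1 array left out. Between VE and ob/ob vehicle they numbered 5, and 19, 0 and 893 in the same order, 12 with a robust prior, 41 with array weights, 17 at an adjusted p under 0.1 and 0 to 21 with 1 array left out. Between VE and wild type they numbered 3920, and 2536 without empirical Bayes, 6630 at the submitters' threshold and 2314 to 4706 with 1 array left out. With the replicate number as a block, 3 members passed between ob/ob vehicle and wild type (Egln3 did not, at adjusted p = 0.0579 by limma), and 0 clusters passed between VE and ob/ob vehicle. No other pairwise call of a member changed under the block. Without empirical Bayes, Pgam1, Ramp3 and Vhl also lost their ob/ob vehicle calls (limma's fit, adjusted p = 0.0538, 0.0605 and 0.0589).

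Small log2 differences changed sign. With 1 array left out, the ob/ob vehicle difference from wild type ran from −0.40 to 0.75 for Slc16a3 and from −0.19 to 0.62 for Bnip3, that of VE from wild type ran from −0.58 to 0.57 for Slc16a3 and from −0.16 to 0.50 for Ddit4, and that of VE from ob/ob vehicle ran from −0.14 to 0.20 for Pgk1 and from −0.017 to 0.61 for Egln3. Without wild type arrays 1 and 2, Bnip3 in ob/ob vehicle gave −0.30, and in VE Hif1a gave −0.063, Slc16a3 gave 0.73 and Ddit4 gave −0.51. Quantile normalization gave −0.059 for Bnip3 in ob/ob vehicle and, in VE against wild type, −0.19 for Hif1a and −0.097 for Ddit4. Array weights gave −0.051 for Slc16a3 in ob/ob vehicle, and median centring gave 0.0033 for Pgk1 between VE and ob/ob vehicle. The causes were not tested. Median centring moved the median of all clusters between VE and wild type by 0.11, and the share of calls that were higher from 62.1% to 70.6%. No level over background can be given.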

Other observations

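For each member, the gene with the most similar profile over the 9 arrays was found by the root mean square difference of log2 values after each gene's own mean was removed. It was Acadl, the long-chain acyl-CoA dehydrogenase of fatty acid oxidation, for Ldha (0.201), Rab5if for Aldoa (0.157), Usp39 for Pkm (0.117), Rrn3 for Pgk1 (0.153), Creb5 for Hif1a (0.156), Nrp2, a co-receptor of vascular growth factors, for Adm (0.217), Dmd, the dystrophin gene of muscle, for Egln3 (0.276), Gpx8 for Bnip3 (0.189) and Kif5b for Slc16a3 (0.236). The members' own spread by the same measure was 1.10 for Ldha, 0.70 for Adm and 1.23 for Egln3. These are descriptions over 9 arrays in 3 groups and were not tested.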
